A study of Homo sapiens with 12 samples.

Results

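The transcripts of 10 genes that encode chemokines and inflammatory cytokines were followed in A549 cells, a human lung adenocarcinoma line. They were taken by their symbols from the 26334 genes of the count tables: the chemokines CXCL1, CXCL2, CXCL3, CXCL5, CXCL16, CCL2 and CCL20 and the cytokines IL6, IL1A and LIF. There were 12 libraries of RNA sequencing, 3 biological replicates for each of 4 conditions. All cells carried a lentiviral shRNA and had been selected with puromycin at 1 µg/ml for 4 days. The shRNA was either a control (shControl) or directed against RNF113A (shRNF113A), which encodes a component of the spliceosome. Cells of each kind were left untreated or exposed to Cisplatin, a platinum drug that crosslinks DNA, at 25 µg/ml for 20 h per the labels. The study gives Cisplatin in µM, not µg/ml, for other experiments on these cells, so the unit of the dose is uncertain. The labels name no shRNA sequence and give no sign of more than 1 cell line, so what follows holds for these A549 cells. The comparisons ask how Cisplatin and the depletion of RNF113A, alone and together, moved these transcripts.

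The count tables held 33859097 to 56071514 read pairs a library, of which 26220526 to 45721152 fell on the strand of a gene, fewest in Cisplatin-treated depleted cells. Levels are given in CPM, the counts of a gene relative to the TMM-scaled size of its library. RNF113A itself had 19.9 ± 0.40 CPM (SD, n = 3) in untreated control cells and 16.0 ± 0.77 in untreated depleted cells, and 29.4 ± 1.95 and 26.7 ± 2.88 with Cisplatin. Its depletion log2 fold change was −0.31 (standard error, SE, 0.09, adjusted p = 0.0247) in untreated cells and −0.14 (SE 0.09, adjusted p = 0.233) in Cisplatin-treated cells. In treated cells the lower level of the target transcript therefore did not pass the test. Of the epithelial markers, KRT8 had 1936 to 7450 CPM, KRT18 1402 to 6441 CPM and CDH1 32.1 to 197 CPM, but KRT19 only 0.674 to 5.32 CPM. Of the leukocyte markers, PTPRC and CD3E had at most 5 and 1 reads in any library, whereas CD14 had 37 to 171 and ITGAM 42 to 794 reads.

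Chemokines are small secreted proteins that draw leukocytes along a gradient by binding receptors of the G protein-coupled class. CXCL1, CXCL2, CXCL3 and CXCL5 bind CXCR2 and attract neutrophils, CXCL16 is anchored in the membrane and binds CXCR6, CCL2 binds CCR2 and attracts monocytes, and CCL20 binds CCR6. IL6 and LIF signal through receptors that share the subunit gp130, and IL1A is a ligand of the receptor IL1R1 that dying epithelial cells can release. In epithelial cells many of these genes are known targets of NF-κB and AP-1, and their mRNAs are often short-lived.

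The genes of the 4 CXCR2 ligands lie close together on chromosome 4. In hg19 CXCL1 spans chr4:74735110-74736959 on the plus strand, and CXCL5 (chr4:74861359-74864496), CXCL3 (chr4:74902306-74904524) and CXCL2 (chr4:74962752-74965010) follow on the minus strand. CCL20 is at chr2:228678558-228682272 and IL1A at chr2:113531492-113542167, CCL2 at chr17:32582304-32584222, CXCL16 at chr17:4636821-4643217, IL6 at chr7:22765503-22771621 and LIF at chr22:30636436-30642840. RefSeq (GRCh38.p14) gave a promoter window for 7 of the 10 genes. The last 100 bases before the start are shown for the CXCR2 ligands and for CCL20, because these genes moved in different directions below, with the match to the consensus of NF-κB (the κB motif, searched on both strands) in capitals.

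CXCL1: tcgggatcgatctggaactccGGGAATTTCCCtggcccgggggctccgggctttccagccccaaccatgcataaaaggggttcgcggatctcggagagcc
CXCL2: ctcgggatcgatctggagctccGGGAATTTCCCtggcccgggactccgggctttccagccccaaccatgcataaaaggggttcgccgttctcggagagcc
CXCL3: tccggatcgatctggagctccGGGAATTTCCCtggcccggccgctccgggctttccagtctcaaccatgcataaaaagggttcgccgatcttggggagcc
CXCL5: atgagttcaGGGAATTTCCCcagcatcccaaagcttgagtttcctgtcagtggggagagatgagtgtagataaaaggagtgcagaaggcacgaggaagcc
CCL20: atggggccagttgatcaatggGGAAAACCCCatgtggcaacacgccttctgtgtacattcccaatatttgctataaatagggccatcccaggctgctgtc

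These stretches are chr4:73869293-73869392 and chr2:227813742-227813841 on the plus strand and chr4:74099196-74099295, chr4:74038690-74038789 and chr4:73998678-73998777 on the minus strand. The capitals of the first 4 cover 2 overlapping matches of the palindromic core. A κB match began at position −79 in CXCL1 and CXCL3, −78 in CXCL2, −91 in CXCL5 and −79 in CCL20, counted from the start site. IL6 had a match at −73. Of 35116 promoter windows of the same 250 bases, 9.96% held such a match. The stretches of CXCL1, CXCL2 and CXCL3 were 89.1% to 94.1% identical to one another, and that of CXCL5 was 47.1% to 47.8% identical to them. IL1A, with windows at 2 start sites, had no κB match within 250 bases and held the AP-1 letters TGANTCA, found in 6.57% of windows. The letters TTGCNNAA, a core of C/EBP sites, stood at −155 in IL6 and −188 in CXCL2 and in 9.05% of windows.

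Read per length, CXCL5 was the most abundant of the 10 transcripts, with a mean of 123.8 RPKM (CPM per kilobase of exon) over the 12 libraries, followed by LIF with 35.3 RPKM. CXCL5 lay above LIF in 12 of 12 libraries and LIF above CXCL1 in 12 of 12. CXCL1 (16.8 RPKM), CCL2 (15.8 RPKM) and CXCL16 (12.03 RPKM) came next, and their order turned with the condition. CXCL1 lay above CCL2 in 8 of 12 libraries and CCL2 above CXCL16 in 8 of 12. CXCL2 had a mean of 6.75 RPKM, CXCL3 of 3.76 RPKM and CCL20 of 2.56 RPKM, with CXCL3 above CCL20 in 8 of 12 libraries. IL1A (0.0662 RPKM) and IL6 (0.0264 RPKM) were close to the limit of detection and could not be ordered. CXCL5 alone made up 38.5% to 74.8% of the summed CPM of the 10 genes in a library.

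**Figure D1:**
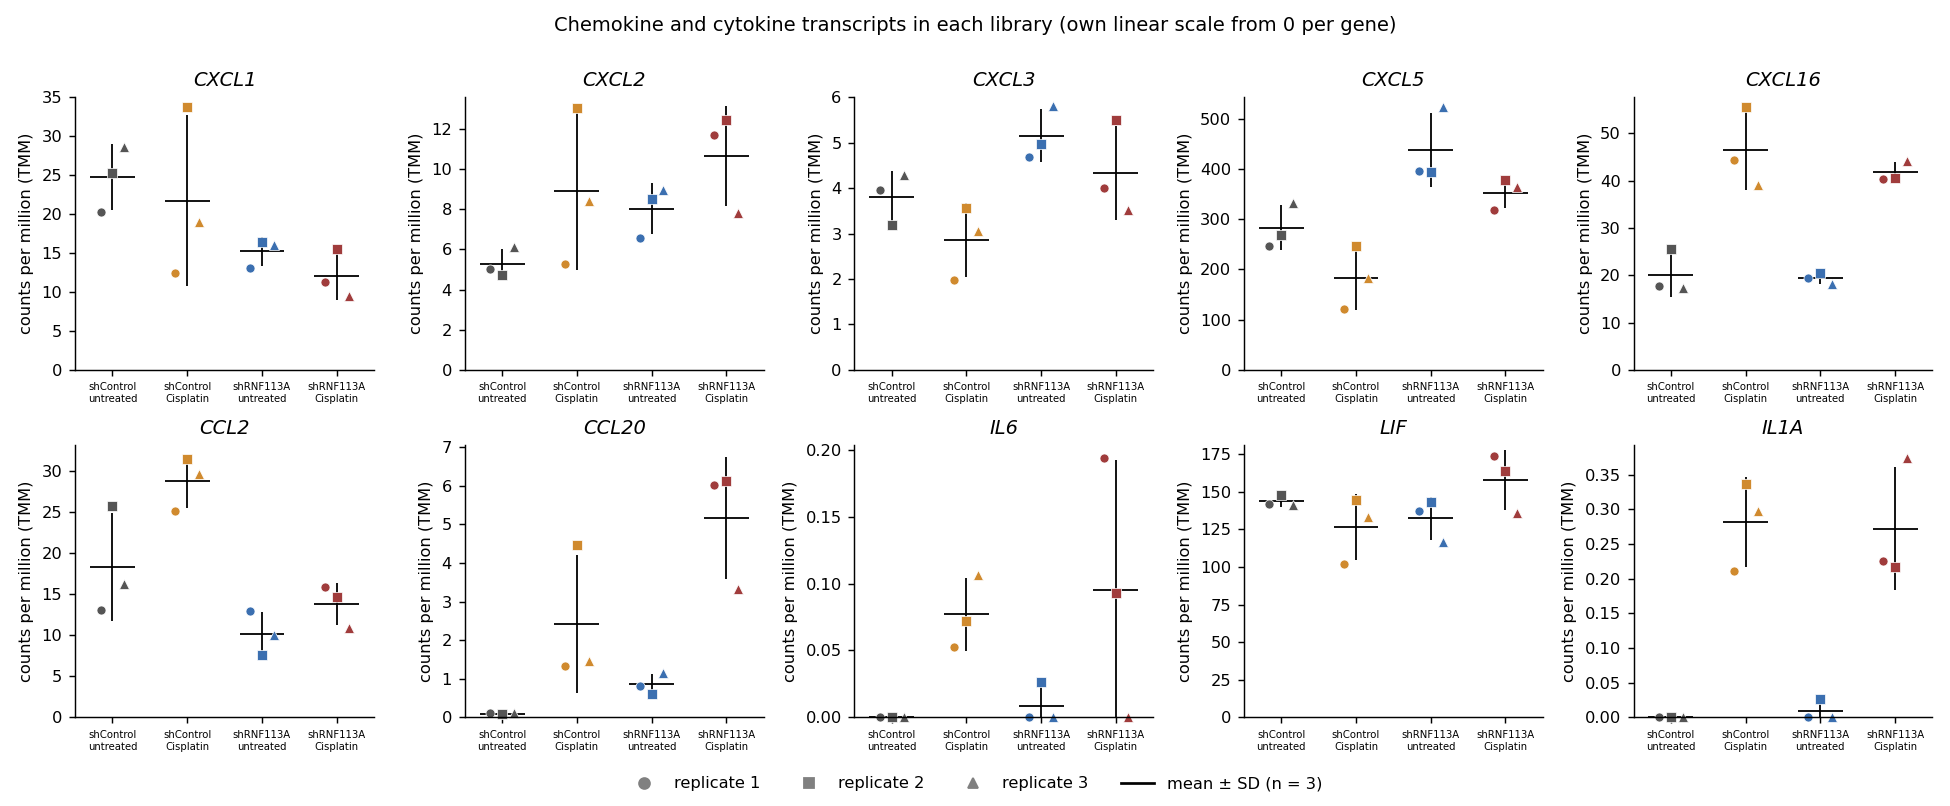
CPM (TMM-scaled, vertical axis, linear from 0 and of its own range for each gene) of the 10 genes in the 12 libraries, grouped by condition, with symbols for the replicate, a bar for the mean and a vertical line for the SD (n = 3, cut at 0). CXCL16, CCL20 and IL1A stand higher in the Cisplatin-treated libraries of either shRNA, the means of CCL2 and CXCL1 are lower and that of CXCL5 higher in depleted than in control cells of the same treatment, and replicate 2 of Cisplatin-treated control cells is the highest of its condition for 9 of the 10 genes.

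The 12 libraries were not equally alike. Within Cisplatin-treated control cells, replicate 2 had the highest CPM of 9 of the 10 genes and replicate 1 of none. CXCL8, an abundant neutrophil chemokine outside the 10 genes, had 15.3, 75.5 and 22.1 CPM in replicates 1 to 3 of that condition. Results that turn on this library are therefore given without it as well. The summed leukocyte markers (PTPRC, CD14, CD3E and ITGAM) ranged from 5.28 to 6.52 CPM in untreated and 13.3 to 18.8 CPM in Cisplatin-treated control cells, and from 4.31 to 5.17 and 8.41 to 9.54 CPM in depleted cells. The rise lay in CD14 and ITGAM, with PTPRC and CD3E at or near 0, and its part in the results was not tested. The summed epithelial markers moved the other way, from 7156 to 12919 CPM in untreated to 3391 to 5162 CPM in Cisplatin-treated control cells. In bulk RNA fewer cells of a type cannot be told apart from less RNA per cell.

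Cisplatin raised CCL20 and CXCL16 at least 2-fold in control and in depleted cells, and IL1A had 1 read in the 6 untreated libraries against 7 to 14 in each treated one. In control cells CCL2 and CXCL2 also rose and CXCL5 fell, each by less than 2-fold, and in depleted cells none of the other members passed the test. LIF, CXCL1 and CXCL3 did not pass in either. A gene was called when the Benjamini-Hochberg adjusted p of edgeR's quasi-likelihood test was under 0.05 and the fold change at least 2, and "rose" and "fell" are used of an adjusted p under 0.05 at any fold. Of the 10 genes 9 passed the filter on low counts, since IL6 had too few reads. In control cells 3 of 9 were called higher and 0 lower (9.16% and 10.6% of all 15352 genes tested), and 6 of 9 had an adjusted p under 0.05 (55.0% of all). In depleted cells 3 of 9 were called higher and 0 lower (11.6% and 11.5% of all), and 3 of 9 had an adjusted p under 0.05 (60.2% of all). The median log2 fold change of the 9 members was 0.65 in control and 0.41 in depleted cells, against −0.00534 and 0.06 over all genes. IL1A passed the filter through the treated groups alone, so it had to be higher there. Its call and its place in these medians are therefore no support. Without IL1A the middle values of the members were −0.18 (LIF) and 0.65 (CCL2) in control cells. In depleted cells they were 0.26 (LIF) and 0.41 (CXCL2). CCL20 passed the filter through the other 3 conditions and not through untreated control cells. Over both shRNAs together, 3 of 9 members were called (21.5% of all genes, in either direction).

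CCL20 was nearly silent in untreated control cells, with 0.111, 0.0764 and 0.106 CPM in replicates 1 to 3, which were 4, 3 and 4 reads. With Cisplatin it had 1.34, 4.47 and 1.45 CPM. In depleted cells it had 0.821, 0.604 and 1.14 CPM without and 6.01, 6.12 and 3.33 CPM with Cisplatin. The treated libraries lay above the untreated ones in either cell type without overlap. The log2 fold change of Cisplatin was 4.59 in control cells (SE 0.60, adjusted p = 4.3e-05, 24.1-fold) and 2.60 in depleted cells (SE 0.46, adjusted p = 3.5e-04, 6.06-fold). Both calls held in 12 of 12 fits that left out 1 library each, and without replicate 2 of treated control cells the value in control cells was 3.80.

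IL1A had no read in any untreated control library and 8, 14 and 14 reads in the Cisplatin-treated ones. Taken over each group, 36 reads against 0 made it at least 10.7-fold higher, with 3 reads over the group as the floor. In depleted cells it had 0, 1 and 0 reads without and 7, 7 and 10 with Cisplatin, a ratio of 28.9 (95% counting interval 4.71 to 1188). The interval covers counting error only. On unstranded counts the fitted log2 fold change in depleted cells was 2.90, against 4.43 on those of the gene's strand. At 0.282 ± 0.065 and 0.272 ± 0.088 CPM (SD, n = 3) the treated control and treated depleted cells overlapped.

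IL6 stood at the floor. It had 0 reads in each untreated control library and 2, 3 and 5 with Cisplatin, which is at least 2.98-fold higher over the group. In depleted cells it had 0, 1 and 0 reads without and 6, 3 and 0 reads with Cisplatin, a ratio of 10.8 (95% counting interval 1.502 to 475). It was not tested in the filtered table. With no filter its adjusted p was 0.0310 in control cells and 0.0705 in depleted cells.

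CXCL16 had 17.6, 25.6 and 17.2 CPM in untreated and 44.4, 55.7 and 39.2 CPM in Cisplatin-treated control cells, and 19.3, 20.5 and 18.2 CPM against 40.4, 40.6 and 44.3 CPM in depleted cells. No treated library reached down to an untreated one. Its log2 fold change was 1.20 in control cells (SE 0.16, adjusted p = 3.9e-05) and 1.11 in depleted cells (SE 0.16, adjusted p = 6.5e-05), and the calls held in 12 of 12 fits without 1 library. The gene overlaps MED11 on the opposite strand, and the calls were the same on the counts of the gene's strand and on unstranded counts.

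CCL2 had 13.1, 25.7 and 16.3 CPM in untreated and 25.1, 31.4 and 29.6 CPM in Cisplatin-treated control cells, with an overlap of replicate 2 of the untreated cells. Replicate numbers paired the control libraries, as judged from the data, and each treated one lay above the untreated one of its number. In the fit without pairing CCL2 rose 1.57-fold (log2 fold change 0.65, SE 0.24, adjusted p = 0.0381). This did not pass in 5 of the 12 fits without 1 library. Leaving out replicate 1 of untreated control cells gave 0.45 (adjusted p = 0.136). In depleted cells the log2 fold change was 0.44 (SE 0.25, adjusted p = 0.148), and over both shRNAs CCL2 rose by 0.54 (SE 0.17, adjusted p = 0.0117).

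Among the CXCR2 ligands, CXCL2 and CXCL5 moved in opposite directions with Cisplatin in control cells, and the difference between them was not tested. CXCL2 rose in control cells (log2 fold change 0.75, SE 0.28, adjusted p = 0.0389), from 4.74 to 6.13 CPM untreated to 5.26 to 13.1 CPM treated, groups that overlapped. In replicates 1 to 3 it had 5.03, 4.74 and 6.13 CPM untreated and 5.26, 13.1 and 8.43 CPM treated, higher in each pair. It did not pass in 5 of the 12 fits without 1 library, with 0.38 (adjusted p = 0.207) without replicate 2 of treated control cells, whereas 1.03 (adjusted p = 0.00440) was found without replicate 1. CXCL5 fell in control cells by 0.63 (SE 0.21, adjusted p = 0.0237), from 248, 269 and 333 CPM to 120, 246 and 182 CPM, lower in each pair. Within the 6 shControl libraries CXCL2 and CXCL5 kept an adjusted p under 0.05 with the replicate block and lost it without the block. The fall of CXCL5 did not pass in 3 of the 12 fits without 1 library. Its log2 fold change was −0.39 (adjusted p = 0.0857) without replicate 1 of treated control cells. It was −0.61 (adjusted p = 0.0665) without replicate 3 of them and −0.50 (adjusted p = 0.0919) without replicate 3 of untreated control cells. Scaling libraries by size alone gave −0.52 (adjusted p = 0.0603). In depleted cells CXCL5 had a log2 fold change of −0.31 (SE 0.21, adjusted p = 0.224) with no overlap of the groups. That of CXCL2 was 0.41 there (SE 0.28, adjusted p = 0.221), with an overlap. CXCL1 had log2 fold changes of −0.19 and −0.33 and CXCL3 of −0.41 and −0.24 in control and depleted cells, none of which passed (adjusted p from 0.155 to 0.611). Without replicate 2 of treated control cells, CXCL1 had a log2 fold change of −0.65 in control cells (adjusted p = 0.0297).

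LIF was high in every condition. It had 144 ± 3.79 CPM in untreated and 126 ± 21.9 CPM in Cisplatin-treated control cells, and 132 ± 14.0 and 158 ± 19.7 CPM in depleted cells (SD, n = 3). Its Cisplatin log2 fold change was −0.18 in control cells (SE 0.13, adjusted p = 0.243) and 0.26 in depleted cells (SE 0.13, adjusted p = 0.106), and the groups overlapped in each comparison. Without replicate 3 of treated depleted cells the latter was 0.35 (adjusted p = 0.0440).

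**Figure D2:**
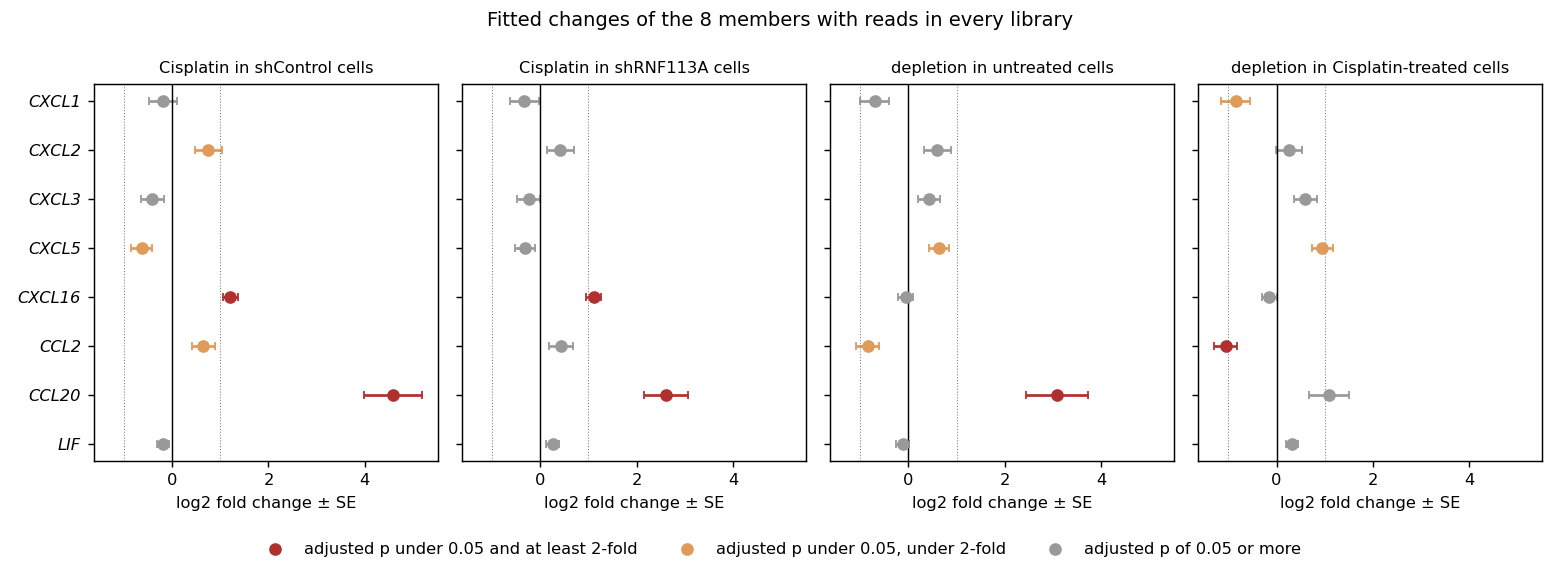
Log2 fold change with its standard error (horizontal axis) of the 8 members that had reads in every library, in the 4 comparisons within 1 level of the other factor. Red marks calls, orange an adjusted p under 0.05 with less than 2-fold, grey the rest, and dotted lines mark 2-fold: CCL20 and CXCL16 are called with Cisplatin in either cell type, CCL20 with depletion in untreated cells and CCL2 with depletion in Cisplatin-treated cells.

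Depletion of RNF113A moved CCL20, CXCL5 and CXCL3 up and CCL2 and CXCL1 down when tested over untreated and treated cells together. Of these CCL20 alone was called, so 1 of 9 members (11.0% of all genes, in either direction), whereas 5 of 9 had an adjusted p under 0.05 (47.5% of all). In untreated cells 1 of 9 was called higher, CCL20, and 0 lower (3.70% and 4.96% of all), and 3 of 9 had an adjusted p under 0.05 (27.4% of all). In Cisplatin-treated cells 0 of 9 were called higher and 1 lower, CCL2 (6.90% and 5.42% of all), and 3 of 9 had an adjusted p under 0.05 (42.9% of all). The median log2 fold change of the members was 0.43 in untreated and 0.26 in treated cells, against 0.00277 and −0.00688 over all genes. These medians count IL1A, which had 1 read in untreated cells. Without IL1A the middle values were 0.43 (CXCL3) and −0.06 (CXCL16) in untreated cells. In treated cells they were 0.26 (CXCL2) and 0.32 (LIF). The comparisons of Cisplatin and of depletion share libraries, and each value is given on its own.

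CCL20 rose 8.46-fold upon depletion in untreated cells (log2 fold change 3.08, SE 0.65, adjusted p = 0.00445), and the call held in 12 of 12 fits without 1 library. The base of this fold is the 4, 3 and 4 reads of the untreated control libraries, against 31, 23 and 37 in the depleted ones. In Cisplatin-treated cells the log2 fold change was 1.09 (SE 0.42, adjusted p = 0.0509), just outside the threshold, with an overlap between 3.33 CPM in a depleted and 4.47 CPM in a control library. Without that control library, replicate 2, it was 1.84 (adjusted p = 8.1e-04), and without replicate 3 of treated depleted cells 1.32 (adjusted p = 0.0408). Over both treatments CCL20 rose 3.17-fold (log2 fold change 1.67, SE 0.41, adjusted p = 0.00473). The 4 conditions thus stood at 0.0977 ± 0.019, 0.854 ± 0.27, 2.42 ± 1.78 and 5.15 ± 1.58 CPM (SD, n = 3) in the order untreated control, untreated depleted, treated control and treated depleted cells.

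CCL2 fell upon depletion in treated cells, from 25.1, 31.4 and 29.6 CPM in control to 15.9, 14.6 and 10.9 CPM in depleted cells, with no overlap. The log2 fold change was −1.06 (SE 0.25, adjusted p = 0.00474, 2.08-fold). Without replicate 3 of treated depleted cells it was −0.91 (adjusted p = 0.0266), which is under 2-fold. In untreated cells the depleted libraries had 13.0, 7.64 and 9.96 CPM, each below the lowest control library at 13.1 CPM, and CCL2 fell by 0.85 (SE 0.25, adjusted p = 0.0238). This lost the threshold without replicate 2 of untreated control cells (−0.53, adjusted p = 0.0741), replicate 2 of untreated depleted cells (−0.68, adjusted p = 0.105) or replicate 3 of them (−0.83, adjusted p = 0.0705). Over both treatments CCL2 fell 1.94-fold (log2 fold change −0.95, SE 0.17, adjusted p = 6.0e-04).

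CXCL5, the most abundant of the 10, rose upon depletion. It had 396, 394 and 523 CPM in untreated and 318, 377 and 364 CPM in treated depleted cells, above every control library of the same treatment. The log2 fold change was 0.63 in untreated cells (SE 0.21, adjusted p = 0.0445), 0.95 in treated cells (SE 0.21, adjusted p = 0.00385) and 0.79 over both (SE 0.15, adjusted p = 9.8e-04). The value in untreated cells lost the threshold in 9 of the 12 fits without 1 library, in which its log2 fold change was 0.48 to 0.70, and that in treated cells reached 1.18 without replicate 2 of treated control cells (adjusted p = 6.5e-04). CXCL3, present at a far lower level, had 3.95, 3.19 and 4.30 CPM in untreated control and 4.69, 4.96 and 5.81 CPM in untreated depleted cells, without overlap. Its log2 fold change there did not pass (0.43, SE 0.23, adjusted p = 0.180). In treated cells it was 0.60 (SE 0.23, adjusted p = 0.0552), and the groups overlapped. CXCL3 rose over both treatments by 0.52 (SE 0.16, adjusted p = 0.0189). Without replicate 2 of treated depleted cells this was 0.39 (adjusted p = 0.0690).

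CXCL1 went the other way. It had 20.2, 25.3 and 28.6 CPM in untreated control against 13.1, 16.4 and 16.1 CPM in untreated depleted cells, without overlap, and 12.4, 33.8 and 19.005 CPM against 11.3, 15.5 and 9.47 CPM with Cisplatin. Over both treatments it fell by 0.77 (SE 0.20, adjusted p = 0.00729). In untreated cells alone the log2 fold change was −0.70 (SE 0.30, adjusted p = 0.0979), and in treated cells CXCL1 fell by 0.85 (SE 0.30, adjusted p = 0.0381). The latter did not pass in 5 of the 12 fits without 1 library. It was −0.42 without replicate 2 of treated control cells (adjusted p = 0.154) and −1.18 without replicate 1 of them (adjusted p = 0.00497). CXCL2 had a log2 fold change of 0.43 over both treatments (SE 0.20, adjusted p = 0.0917). In untreated cells it was 0.60 (SE 0.28, adjusted p = 0.138). Control libraries had 4.74 to 6.13 CPM there and depleted ones 6.59 to 8.98 CPM, with no overlap. In treated cells it was 0.26 (SE 0.28, adjusted p = 0.471), and the groups overlapped.

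CXCL16 and LIF did not pass in the tests of depletion over all 12 libraries. CXCL16 had depletion log2 fold changes of −0.06 (SE 0.16) without and −0.15 (SE 0.15) with Cisplatin. LIF had −0.12 (SE 0.13, adjusted p = 0.526) and 0.32 (SE 0.13, adjusted p = 0.0616). The latter passed in 2 of the 12 fits without 1 library, with 0.38 (adjusted p = 0.0376) without replicate 2 of treated control cells and 0.42 (adjusted p = 0.0338) without replicate 3 of treated depleted cells. IL1A, with 36 reads in treated control and 24 in treated depleted libraries, had a depletion log2 fold change of −0.07 with Cisplatin (SE 0.43, adjusted p = 0.903).

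No member passed the test of whether the effect of Cisplatin differed between control and depleted cells. By edgeR 0 of 9 were called (1.28% of all genes, in either direction), and 2 of 9 had an unadjusted p under 0.05 (21.6% of all). DESeq2 also called 0 of the members (287 of 15352 genes). CCL20 had an interaction log2 fold change of −1.99 (SE 0.79, unadjusted p = 0.0268, adjusted p = 0.168), and LIF of 0.44 (SE 0.18, unadjusted p = 0.0322, adjusted p = 0.184). The larger Cisplatin fold of CCL20 in control than in depleted cells was therefore not shown to differ beyond the spread of the libraries.

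The opposite moves of the CXCR2 ligands were clearest as ratios within a library, which do not depend on the scaling of libraries. These ratios were chosen after the values were seen and are given as a description with no test. The RPKM of CXCL1 was 5.02, 7.79 and 6.53 times that of CXCL3 in untreated control cells and 6.15, 9.30 and 6.08 times with Cisplatin, but 2.75, 3.24 and 2.71 times in untreated and 2.76, 2.76 and 2.64 times in treated depleted cells. The depleted libraries lay below all control libraries with either treatment. The ratio of CXCL2 to CXCL3 followed Cisplatin instead. It was 1.12 to 1.31 in untreated and 2.35 to 3.24 in treated control cells, and 1.24 to 1.51 and 1.96 to 2.58 in depleted cells. CXCL1 over CXCL2 had its highest values in untreated control cells (4.47 to 5.93), lower ones in treated control (2.504 to 2.87) and untreated depleted cells (1.99 to 2.21), and its lowest in treated depleted cells (1.07 to 1.38). The ratio of CXCL5 to CXCL3 ranged from 25.2 to 43.8 over all 12 libraries, with overlap between conditions that differed by depletion or Cisplatin.

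**Figure D3:**
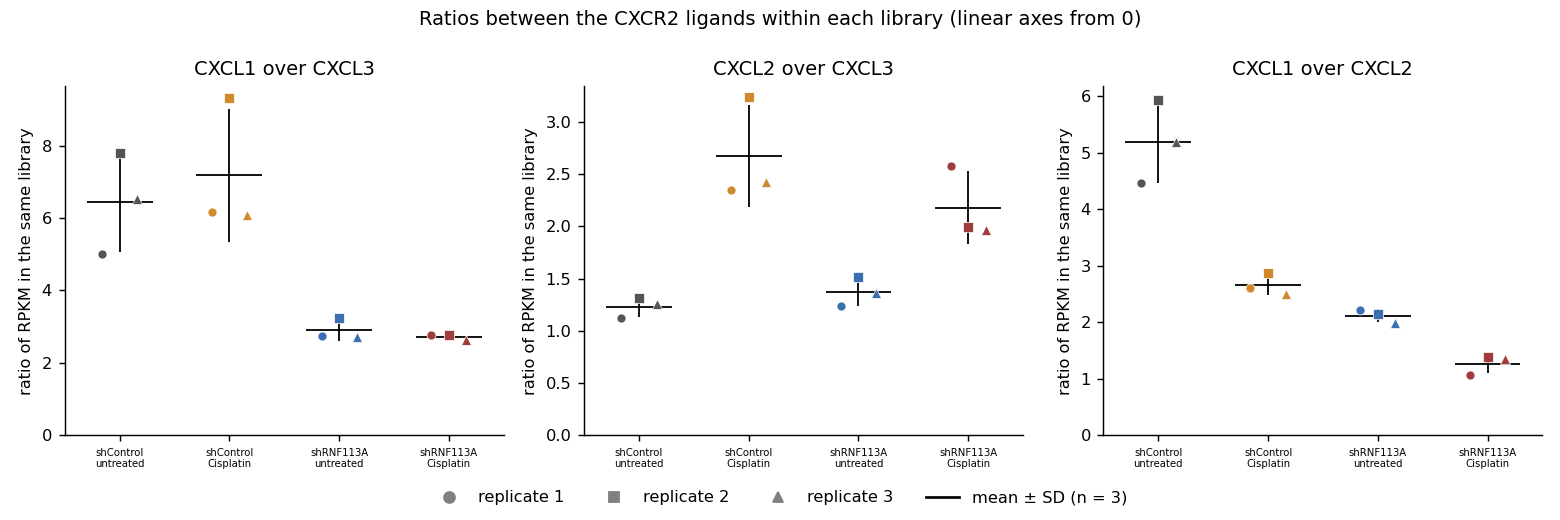
Ratio of the RPKM of 2 CXCR2 ligands within the same library (vertical axis, linear from 0) for the 12 libraries grouped by condition, with the mean and SD (n = 3). CXCL1 over CXCL3 is 2.64 to 3.24 in the depleted and 5.02 to 9.30 in the control libraries, and CXCL2 over CXCL3 is 1.12 to 1.51 without and 1.96 to 3.24 with Cisplatin.

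CXCL1, CXCL2 and CXCL3 are close paralogs, and the aligner counted only pairs with a single place in the genome. Stretches of 73 nt, the read length after trimming, were compared between the annotated transcripts of the 4 CXCR2 ligands. Of the stretches of CXCL1 0.488% also occurred in another of the 4 genes, of CXCL2 2.62%, of CXCL3 2.49% and of CXCL5 none of 2466. Shared sequence of that length thus touched a small part of each gene, and reads with mismatches that could still be split between them were not examined.

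CXCL3 had the profile nearest to CXCL5. Among 13087 genes whose mean reached 1 CPM, compared over the 12 libraries by the root mean squared difference of centred log2 CPM, CXCL3 came first (0.23), followed by OAF (0.25) and PLEKHG2 (0.25). For LIF the nearest were ANKLE2 (0.11), ITGB2-AS1 (0.12) and ZNF839 (0.12), and for CXCL1 BDNF (0.25), ZNF443 (0.26) and PPARG (0.27). Among the members CXCL1 and CCL20 were furthest apart (2.39). Libraries share their depth and treatment, so these differences are a description.

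Since RNF113A is part of the spliceosome, the share of intronic reads of the members was examined. It was highest in CXCL2 and CXCL3, at 22.1 ± 1.07% and 19.1 ± 2.76% (SD, n = 3) of gene reads in untreated control cells, lower in CXCL1 (5.57 ± 1.01%) and LIF (2.40 ± 0.21%), and below 1.2% in CXCL5 in every library. Upon depletion in Cisplatin-treated cells the intronic to exonic ratio rose in CXCL1 (log2 ratio change 1.14, SE 0.28, adjusted p = 9.3e-04), CXCL2 (1.00, SE 0.27, adjusted p = 0.00226), CXCL3 (0.94, SE 0.32, adjusted p = 0.0103) and LIF (0.52, SE 0.20, adjusted p = 0.0196), which is 4 of the 5 members tested. Without replicate 2 of treated control cells 2 of 5 passed, and the share of all genes in that fit is not given here. With all 12 libraries the test passed in 84.0% of all 11018 genes tested, and the median change of all genes was 0.97 against 0.94 for the members. CXCL5 was the exception (0.25, SE 0.21, adjusted p = 0.268). CXCL1 rose from 3.38%, 3.48% and 4.44% in treated control to 9.22%, 7.51% and 7.11% in treated depleted cells, without overlap.

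In untreated cells 1 of 5 passed upon depletion (29.8% of all), CXCL1, with a log2 ratio change of 0.67 (SE 0.25, adjusted p = 0.0459) and shares of 4.47%, 5.79% and 6.45% in control and 6.96%, 11.4% and 7.49% in depleted cells. It passed in 2 of the 12 fits without 1 library, those without replicate 2 or 3 of treated control cells, and in 0 of the other 10. With Cisplatin 0 of 5 passed by edgeR in control cells (19.2% of all) and 0 of 5 in depleted cells (67.4% of all), with 1 of 5 at an unadjusted p under 0.05 in each. DESeq2 was not run on these ratios. In treated control cells replicate 2, in which the levels were highest, had the lowest intronic share of CXCL2 (10.3%), CXCL3 (10.5%), CXCL5 (0.656%) and LIF (1.67%). The other 5 members had fewer than 10 intronic reads per library on average and were not tested.

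**Figure D4:**
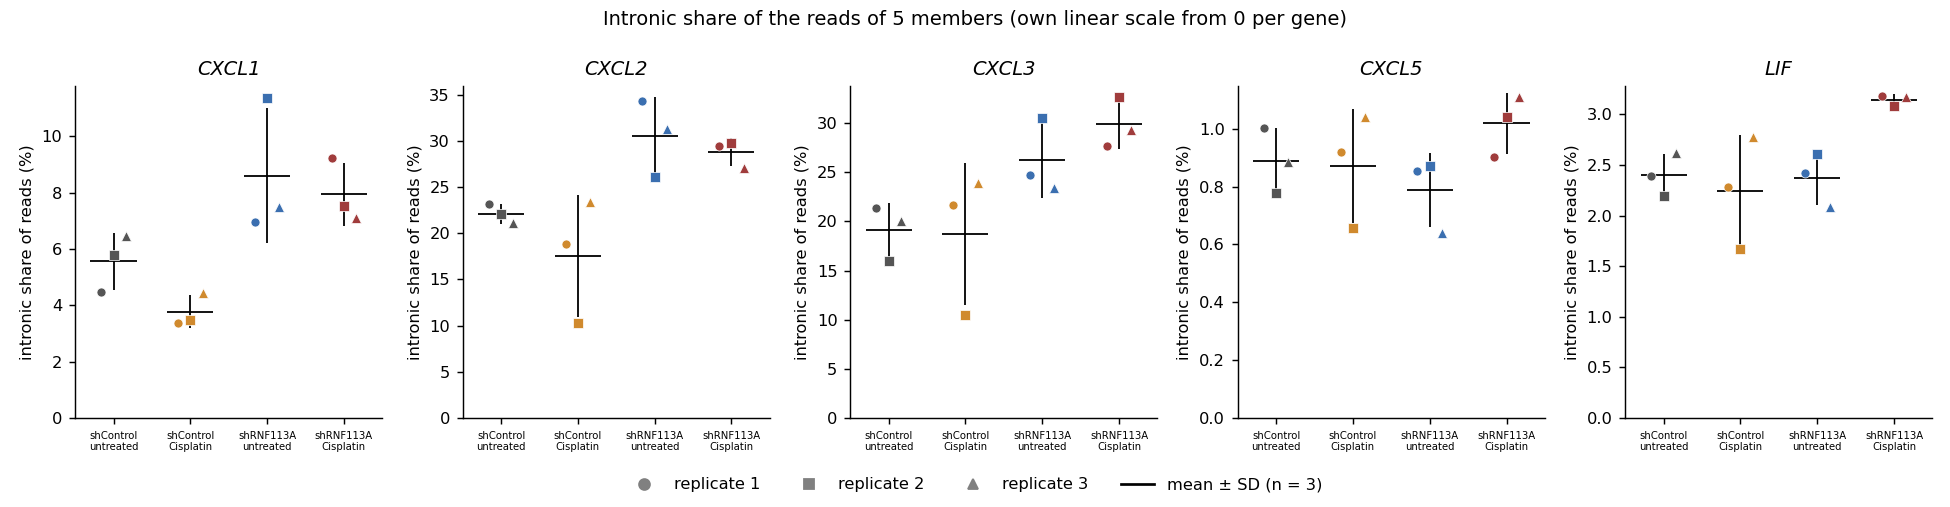
Intronic reads as a percentage of intronic and exonic reads (vertical axis, linear from 0 and of its own range for each gene) for the 5 members tested, in the 12 libraries grouped by condition, with the mean and SD (n = 3). CXCL1, CXCL2 and CXCL3 lie higher in depleted than in control cells under Cisplatin, LIF does so by less, and CXCL5 stays near 1% throughout.

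The splicing tables held 3 events in the members. The skipped exon of LIF (chr22:30640744-30640922, hg19) was included in 97.6 ± 0.54% of transcripts in untreated control, 98.1 ± 0.58% in treated control, 96.2 ± 0.75% in untreated depleted and 98.2 ± 1.64% in treated depleted cells (SD, n = 3), from 513 to 851 reads per library. A retained intron of CXCL3 (chr4:74904007-74904406) had 4 to 24 reads per library and means of 10.8% to 15.5%. A skipped exon of CCL20 (chr2:228681023-228681100) had 1 skipping read in the 9 libraries that list it. None of these was a treated depleted library. The events were described without a test, and with so few reads no difference is read from those of CXCL3 and CCL20.

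The other genes of the pathway were taken from lists by role. Of 15 other chemokines 4 were tested. CXCL8, which binds CXCR1 and CXCR2, rose with Cisplatin in control cells (log2 fold change 3.32, SE 0.49, adjusted p = 1.1e-04) and in depleted cells (2.46, SE 0.46, adjusted p = 5.5e-04) and upon depletion in untreated cells (1.43, SE 0.48, adjusted p = 0.0438). Like CCL20 it had its lowest mean in untreated control cells (3.77 CPM) and its highest in treated depleted cells (56.1 CPM). Upon depletion in treated cells CXCL8 did not pass (0.58, SE 0.43, adjusted p = 0.296). Its highest library was a treated control one (75.5 CPM), against 51.5 to 62.9 CPM in treated depleted cells. The lymphocyte chemokine CX3CL1 upon depletion fell by 2.08 without (adjusted p = 0.0204) and fell by 2.56 with Cisplatin (adjusted p = 0.00601). CCL22 had at most 0.0851 CPM in a control library and at least 0.129 CPM in a depleted one. It reached the minimum of the filter in depleted libraries alone, so no test of depletion is given. CCL26 fell by 1.26 upon depletion in untreated cells (adjusted p = 0.0202) and rose by 1.69 with Cisplatin in depleted cells (adjusted p = 0.00129).

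Of 17 other cytokines 9 were tested. With Cisplatin 5 were called higher and 1 lower in control cells (9.16% and 10.6% of all genes), and 5 and 1 in depleted cells (11.6% and 11.5% of all). IL12A rose by 2.42 (adjusted p = 5.3e-06) in control and by 3.12 (adjusted p = 5.9e-07) in depleted cells, and IL15, a growth factor of lymphocytes, fell by 1.67 (adjusted p = 1.1e-04) and fell by 1.87 (adjusted p = 3.4e-05). TNF had at most 0.0788 CPM in an untreated library and 0.0789 to 0.649 CPM in the treated ones. It passed the filter through treated libraries alone, so its call, 1 of the 5 in either cell type, is no support. Upon depletion in untreated cells 0 of the 9 were called by edgeR (3.70% of all genes higher and 4.96% lower) and 0 by DESeq2 (1277 of 15352 genes). An unadjusted p under 0.05 was found for 4 of the 9 (6069 of 15352 genes). In treated cells edgeR called IL23A alone, higher (1.09, adjusted p = 0.0392), against 6.90% of all genes higher and 5.42% lower. DESeq2 called 0 of the 9 there (1789 of 15352 genes).

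Of 15 receptors and receptor antagonists 10 were tested. CXCR2, the receptor of the 4 ligands, had at most 0.0525 CPM in an untreated library, 1.10, 1.13 and 1.95 CPM as the lowest, median and highest of treated control and 0.194 to 0.449 CPM in treated depleted cells. It passed the filter through treated libraries alone, those of control cells above all, so no test is given. IL1R1, the receptor of IL1A, fell by 1.49 with Cisplatin in control (adjusted p = 3.4e-06) and fell by 1.19 in depleted cells (adjusted p = 2.6e-05). Its coreceptor IL1RAP rose upon depletion in untreated cells by 1.84 (adjusted p = 2.3e-06). Upon depletion in untreated cells CXCR4 fell by 2.07 (adjusted p = 7.7e-05) and with Cisplatin in depleted cells it rose by 2.88 (adjusted p = 7.2e-07). ACKR3, a scavenger of chemokines, had 0.530 to 0.790 CPM in untreated control cells and no read in treated depleted ones. It reached the minimum of the filter in control libraries alone, 3 untreated and 1 treated, so no test of depletion is given.

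Of 18 regulators of transcription from the NF-κB, AP-1, C/EBP and STAT3 pathways, all tested, 8 were called higher and 0 lower with Cisplatin in control cells (9.16% and 10.6% of all genes), and 8 and 1 in depleted cells (11.6% and 11.5% of all). ATF3 rose most, by 4.01 (adjusted p = 3.2e-07) and 3.70 (adjusted p = 5.4e-07), and TNFAIP3, an inhibitor of NF-κB signalling, by 2.76 (adjusted p = 3.7e-08) and 2.89 (adjusted p = 2.7e-08). CEBPD fell by 1.49 in depleted cells (adjusted p = 2.2e-04). Upon depletion 1 was called higher in untreated cells (3.70% of all), FOS, by 2.37 (adjusted p = 0.00478), and 3 in treated cells (6.90% of all), among them FOS by 1.89 (adjusted p = 0.00926) and JUN by 1.57 (adjusted p = 0.00275). Of 9 regulators of the decay of such mRNAs, which include ZFP36 and ZC3H12A, edgeR called 0 in any of the 4 comparisons (1329 to 3547 of 15352 genes). At an unadjusted p under 0.05 stood 4 with Cisplatin in control and 5 in depleted cells (9240 and 9826 of all genes). Upon depletion it was 2 in untreated and 7 in treated cells (6069 and 7890 of all). DESeq2 called 1 with Cisplatin in depleted cells (3443 of all). Of the 4 proteases ADAM10, ADAM17, CAPN1 and CAPN2, edgeR called ADAM10 alone, which sheds CXCL16. It was lower with Cisplatin in depleted cells (log2 fold change −1.23, SE 0.09, adjusted p = 2.6e-07), where 11.5% of all genes were called lower.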

How the data were processed

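RNA of 12 A549 libraries was sequenced from both ends after selection of mRNA with a stranded kit, and all libraries were multiplexed together. The authors removed rRNA, tRNA and mitochondrial reads, trimmed to 73 nt, aligned to hg19 with STAR 2.5.2b and deposited raw read counts per gene, HTSeq counts within exons and within whole genes, and rMATS tables of reads per splice form. The authors' p-values and differences in the rMATS tables were not used. Gene-strand counts were filtered with filterByExpr, TMM-scaled and tested with edgeR 4.0.16 (quasi-likelihood, Benjamini-Hochberg, R 4.3.3) over 15352 genes, with 1 model of both effects and 1 with their interaction. Intronic reads were gene minus exon counts, for genes with a mean of at least 10. Scripts were tested on simulated data. Replicate numbers paired the libraries of shControl cells (correlations of deviations 0.58, 0.72 and 0.47), as judged from the data. For shRNF113A cells the correlations were 0.27, 0.003 and 0.29, which left pairing there unresolved. Between groups of different shRNA they were −0.13 to 0.17, and these were taken as not paired. Alternatives were unstranded counts, other scaling and filters, DESeq2 1.42.0, the replicate block, fits within 6 libraries and leaving out each library. All 10 genes are named, with up to 2 called genes of the largest rise and fall per list and comparison. The genes and lists were chosen with earlier results of these data known. The labels call the libraries biological replicates but do not describe separate cultures, so p-values cover the spread between these libraries, and counting intervals cover counting error only.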

Additional observations from a re-analysis of the deposited data

How the results depend on the processing

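No value of a member with an adjusted p under 0.05 turned its sign under any alternative run, and 22 other values did. Of the values of single members, 1142 kept their side of the call, 18 became calls and 1 lost its call (CCL2 upon depletion in treated cells, above). Asking for 10 or more reads of a gene in all 12 libraries left 13159 genes and removed CCL20 and IL1A. The members called with Cisplatin then numbered 1 over both shRNAs, 1 in control and 1 in depleted cells. In that order 2121, 2038 and 2451 of the 13159 genes were called. Upon depletion 0 members were called over both treatments and 0 in untreated cells, against 824 and 789 of the 13159 genes. With the main filter and an adjusted p under 0.05 alone, the members numbered 6 for Cisplatin in control cells (55.0% of all 15352 genes). Over both shRNAs they also numbered 6. At an unadjusted p under 0.05 stood 6 of 9 members there and 10682 of all 15352 genes. For depletion they numbered 5 over both treatments, 3 in untreated and 3 in treated cells (47.5%, 27.4% and 42.9% of all). Depletion in treated cells gave 2 calls in place of 1 with unstranded counts, with no filter, with DESeq2 and with the replicate block, in each case by the addition of CCL20 (log2 fold changes of 1.08, 1.08, 1.05 and 1.18, adjusted p = 0.0433, 0.0457, 0.0488 and 0.0271). In that order all genes called numbered 2046 of 15737, 2035 of 21317, 1789 of 15352 and 1980 of 15352. The replicate block changed no other count of calls over the 12 libraries. Within the 6 shControl libraries it gave 2 Cisplatin calls in place of 3 (2949 of 14719 genes), since IL1A did not pass the filter there. CCL2, CXCL2 and CXCL5 kept an adjusted p under 0.05 in that fit. Within those 6 libraries without the block these 3 lost it (0.0664, 0.0942 and 0.0780), whereas CXCL5 (−0.36, adjusted p = 0.00735) and CXCL1 (−0.38, adjusted p = 0.0415) gained it within the 6 shRNF113A libraries. Upon depletion, within the 6 untreated libraries CXCL1 (adjusted p = 0.0166) and CXCL2 (0.0417) gained it and CCL2 (0.0682) lost it, and within the 6 treated ones CXCL1 (0.0794) lost it. The replicate block brought an adjusted p under 0.05 to CXCL1 in untreated cells (0.0302) and to CXCL3 (0.0445) and LIF (0.0458) in treated cells, comparisons in which the numbers did not pair the libraries. Leaving out 1 library gave 1 to 2 calls upon depletion over both treatments, 1 to 2 in untreated and 1 to 3 in treated cells. In the same fits 1657 to 1835, 1087 to 1425 and 1623 to 2080 of all 15554 to 15625 genes were called. For the intronic ratio, leaving out 1 library gave 0 to 1 with Cisplatin in control and 0 to 2 in depleted cells. Upon depletion it gave 0 to 2 in untreated and 2 to 4 in treated cells. With all 12 libraries 19.2%, 67.4%, 29.8% and 84.0% of all 11018 genes tested passed in these comparisons. A mean of at least 1 intronic read gave 0 upon depletion in untreated cells. The shares of all genes under these other settings of the intronic ratio are not given. The counts under them are therefore not read as a result about the members. The cause of these shifts was not tested, other than the genes removed by the filter. Depth limited IL6, IL1A and CCL20 most, with 0 to 14 reads in a library for the first pair and 3 or 4 for CCL20 in untreated control cells.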
